A study of Mus musculus with 4 samples.

Results

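The cells described here are marrow stromal cells with high Cxcl12, Adipoq and Lpl, taken from the 2 single-cell libraries of the youngest mice, aged 1 and 1.5 months. A cell was chosen when it had 200 to 6000 genes, at most 5% mitochondrial UMIs and no UMI of Ptprc, the gene of the pan-leukocyte protein CD45, and when at least 80 Cxcl12, 8 Adipoq and 5 Lpl UMIs were counted per 10000 UMIs of the cell. A UMI is a tag that marks 1 captured RNA molecule. The rule gave 1283 cells of 13761 that passed the filter on genes and mitochondrial UMIs, of 27907 barcodes in the 4 libraries of the series. They were 162 of 8308 filtered cells at 1 month, or 1.95% (1.66 to 2.27, exact Clopper-Pearson 95% interval), and 1121 of 5453 at 1.5 months, or 20.6% (19.5 to 21.7). Of the Ptprc-free cells alone they were 4.16% (3.55 to 4.83) and 20.8% (19.7 to 21.9). They are called Adipoq-Cxcl12 cells below.

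The mice were male Col2:Td animals of strain B6SJL/F1, in which Col2-Cre switches on a Rosa26 tdTomato reporter in chondrocytes, osteoblasts and stromal cells and their descendants. At 1 month 2 mice were pooled and at 1.5 months 3, so each age is 1 library without a replicate, and no comparison below carries a test. Cells came from protease-digested endosteal bone fragments after the central marrow had been flushed out, and were sorted for the 1% of cells with the most Td, or for Td+ cells where a Td peak was clear. Age, library, pool and sort cannot be told apart. Intervals are 95% intervals and cover counting error only.

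Cxcl12-abundant reticular cells of the marrow surround sinusoids and hold blood-forming cells in place through the chemokine Cxcl12, the stem cell factor Kitl and the adhesion molecule Vcam1. Many carry the leptin receptor Lepr and the adipogenic regulators Pparg and Cebpa, yet store no lipid. Adipoq encodes the adipocyte hormone adiponectin, and Lpl the enzyme that releases fatty acids from lipoproteins.

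The genes that chose the cells are described without a test. Median Cxcl12 was 183 UMIs per 10000 at 1 month and 275 at 1.5 months, median Adipoq 20.9 and 30.3, and median Lpl 27.5 and 23.6. The lowest chosen cells stood at 80.8 and 87.4 for Cxcl12, at 8.03 and 8.10 for Adipoq and at 5.36 and 5.11 for Lpl. Just outside, the highest cells that missed only that limit were at 74.2 and 76.5 for Cxcl12, 7.77 and 7.93 for Adipoq, and 4.32 and 4.96 for Lpl. The Adipoq limit left out the most otherwise fitting cells, 56 at 1 month and 109 at 1.5 months. The Lpl limit left out 4 and 61 and the Cxcl12 limit 3 and 8. A Ptprc UMI alone kept out 35 cells at 1 month and 0 at 1.5 months.

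**Figure D1:**
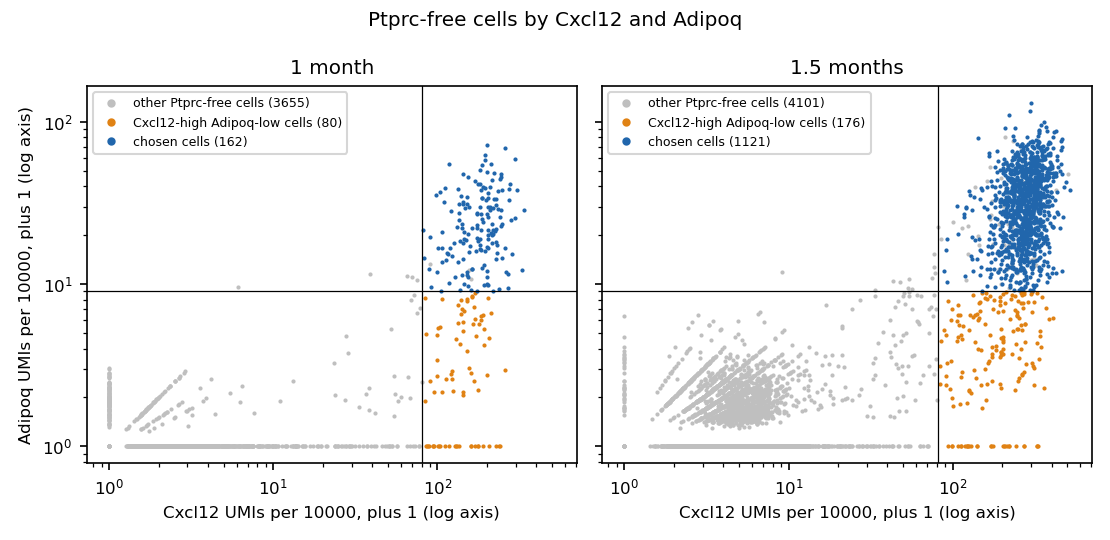
Ptprc-free filtered cells of each library by Cxcl12 (horizontal) and Adipoq (vertical) UMIs per 10000 plus 1, both on log axes, with lines at the limits of 80 and 8. The 162 and 1121 chosen cells (blue) lie at the upper right, and the 80 and 176 cells with Cxcl12 over its limit and Adipoq under it (orange) lie below them. The grey cells inside both lines, 4 at 1 month and 61 at 1.5 months, missed the Lpl limit.

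Chosen cells had fewer UMIs than the other Ptprc-free cells. Their median was 7255 UMIs and 2543.5 genes at 1 month and 5971 UMIs and 2187 genes at 1.5 months. The other Ptprc-free cells had 9538 UMIs and 2511 genes, and 11528 UMIs and 2907 genes. Cells with Cxcl12 over its limit and Adipoq under it had 7089 and 6554.5 UMIs. The reporter was counted at 4267 UMIs per 1000000 UMIs of the group (CPM) (4152 to 4383) and 4027 CPM (3980 to 4074), against 2546 and 2803 CPM in the other Ptprc-free cells. The 2 libraries shared 61 barcodes, none of them a chosen cell in both. No doublets were removed beyond the limit of 6000 genes. RNA of other cells was present in chosen cells, and differed by library. The 9 neutrophil genes summed to 16763 CPM at 1 month and 561 at 1.5 months, and the 6 erythroid genes to 9242 and 2336 CPM. The 10 chondrocyte genes summed to 370 and 3810 CPM. All 9 neutrophil and all 6 erythroid genes had UMIs in chosen cells of both libraries, as had 9 of the 10 chondrocyte genes at 1 month, the exception being Ihh, and all 10 at 1.5 months. The other Ptprc-free cells held 47506 and 901 CPM of the neutrophil genes, 96843 and 3014 of the erythroid and 7905 and 45945 of the chondrocyte genes. The part of this RNA in the results below was not tested beyond the values given with them.

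Of the 5 marker genes, 3 chose the cells and cannot check the label. The others, Lepr and Kitl, were at least 4-fold higher than in the other Ptprc-free cells in both libraries. Lepr was at 161 CPM (139 to 185) at 1 month and 315 CPM (302 to 329) at 1.5 months, against 6.47 and 27.9 CPM in the other Ptprc-free cells. Kitl stood at 591 CPM (549 to 635) and 710 CPM (691 to 730), against 16.1 and 31.7 CPM. The groups lay far apart for both genes, and single chosen cells ran from 0 to 23.2 Kitl UMIs per 10000 with a median of 5.50 at 1 month, and from 0 to 34.4 with a median of 6.37 at 1.5 months. Lepr was sparser, from 0 to 10.1 with a median of 1.31 and from 0 to 17.1 with a median of 2.81. With each cell thinned at random to 5000 UMIs, a Kitl UMI was found in 89.8% (84.0 to 94.1) and 95.8% (94.2 to 97.1) of the 157 and 794 chosen cells that were deep enough, and a Lepr UMI in 47.1% (39.1 to 55.3) and 77.2% (74.1 to 80.1). In Ptprc-positive cells, which should lack both genes, 3.30% and 6.67% had a Kitl UMI and 1.45% and 4.44% a Lepr UMI after the same thinning, of 4334 cells at 1 month and only 45 at 1.5 months. A Kitl UMI was found about as often in chosen cells with a Lepr UMI as in those without, in 90.5% and 89.2% at 1 month and in 95.9% and 95.6% at 1.5 months.

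Across the genome, 6903 genes had a mean of at least 10 CPM over the chosen and the other Ptprc-free cells in both libraries. Of these, 323 (4.68%) were at least 4-fold higher in Adipoq-Cxcl12 cells in each library, and 160 (2.32%) at least 4-fold lower. The 323 include Cxcl12, Adipoq and Lpl, which the rule used. In the single libraries the shares at 4-fold were 7.19% and 6.46% higher and 2.84% and 3.45% lower. At 2-fold in both the counts were 966 (14%) and 304 (4.4%). The median log2 ratio over all genes compared was 0.33 at 1 month and 0.28 at 1.5 months. The other Ptprc-free cells, 3735 at 1 month and 4277 at 1.5 months, include the 80 and 176 cells with Cxcl12 over its limit and Adipoq under it. Cells that missed only the Lpl limit are also among them. The comparison cells differ between libraries. Those at 1 month held blood cells in which no Ptprc UMI was read, and those at 1.5 months were rich in chondrocytes. When cartilage cells and cells rich in neutrophil RNA were left out of them, a choice made after seeing the data, 220 genes were at least 4-fold higher, 206 of them among the 323. Cells rich in erythroid RNA were not left out, so this is not a comparison with stromal cells alone.

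**Figure D2:**
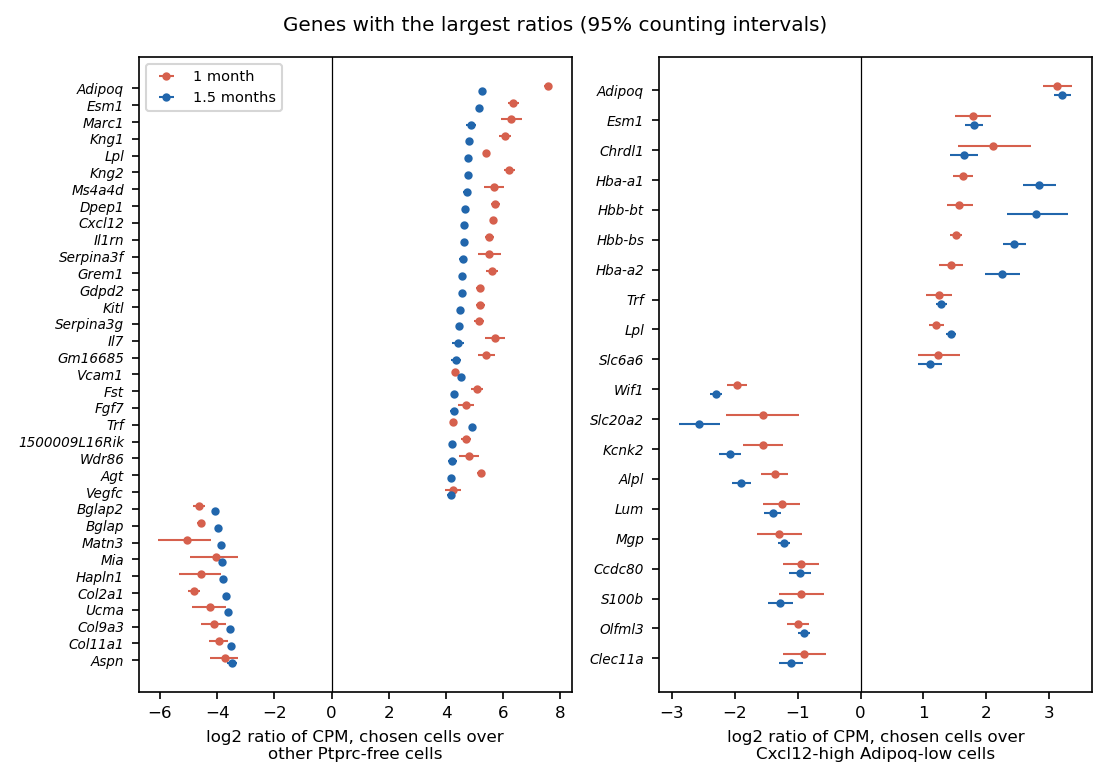
Left, log2 ratio of CPM in Adipoq-Cxcl12 cells over the other Ptprc-free cells for the 25 genes with the largest ratio among those at 100 CPM or more in chosen cells and the 10 with the smallest among those at 100 CPM or more in the other cells. Right, the ratio over Cxcl12-high Adipoq-low cells for the 10 leading genes each way under the same limit. Red points are 1 month, blue points 1.5 months, and bars are 95% counting intervals. Esm1 stands at 6.35 and 5.15. Adipoq, Cxcl12 and Lpl on the left and Adipoq and Lpl on the right were used by the rule, so their ratios are not results.

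Among the 25 leading genes with at least 100 CPM in chosen cells were Esm1 and the kininogen genes. Esm1, an endothelial-acting proteoglycan also called endocan, was at 676 CPM (631 to 723) at 1 month and 1144 CPM (1119 to 1169) at 1.5 months, against 8.26 and 32.2 CPM in the other cells. Its log2 ratio was 6.35 (6.17 to 6.54) and 5.15 (5.08 to 5.23), and 87.9% and 91.4% of thinned chosen cells had a UMI, against 2.82% and 11.4% of the other Ptprc-free cells. Kng1 and Kng2, which encode kininogens, the plasma precursors of bradykinin, were in the same range. Kng1 had 460 CPM (423 to 499) and 521 CPM (504 to 538), and Kng2 505 CPM (466 to 546) and 533 CPM (516 to 550). Both were under 20 CPM in the other cells of either library. The kininogen genes are close copies, and reads that fit both would be split or lost in counting.

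The kininogen genes and Adipoq are neighbours. In GENCODE M21 on GRCm38, Kng2 lies on chromosome 16 from 22985854 to 23029482 on the minus strand, Kng1 from 23057865 to 23082078 and Adipoq from 23146536 to 23158028, both on the plus strand. The stretch of 172 kb holds 5 protein-coding genes. Between Kng1 and Adipoq lie Eif4a2, a translation initiation factor, at 269 and 334 CPM in chosen cells against 132 and 178 CPM in the other cells, and Rfc4, a replication factor subunit, at 8.08 and 7.82 CPM against 50.2 and 11.8 CPM. Kng2 and Kng1 thus had log2 ratios of at least 4.77 in both libraries, while Eif4a2 had 1.03 and 0.91 and Rfc4 was lower in chosen cells. The ratio of Adipoq was set by the rule. Levels were also unequal in the Serpina3 cluster of protease inhibitors on chromosome 12, where 10 protein-coding genes lie within 302 kb. Serpina3g had 476 and 632 CPM, Serpina3f 103 and 222 CPM and Serpina3c 48.5 and 125 CPM, while Serpina3a, Serpina3b, Serpina3j and Serpina3k had 0 UMIs in chosen cells of both libraries. These stretches were looked at after the values of their genes were known.

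Promoters are shown for a gene pair of the rule and for 1 gene each from the kininogen and Serpina3 stretches, as examples. A link between these sequences and the levels was not tested. They are RefSeq sequences of build GRCm38.p6 (mouse), 250 bases before to 50 after the annotated start, 5′ to 3′ on the gene's strand. Of the 25 leading genes, 17 had a promoter in the table used, and 3 of these had more than 1. Capitals mark the C/EBP pattern TTGCNNAA and the RUNX core TGTGGT, each on either strand. The EBF palindrome, TCCC and GGGA with 2 bases of any kind between them, was searched too and was in none of these 4 windows. No matches overlap.
Adipoq, chr16:23146286-23146585, plus strand: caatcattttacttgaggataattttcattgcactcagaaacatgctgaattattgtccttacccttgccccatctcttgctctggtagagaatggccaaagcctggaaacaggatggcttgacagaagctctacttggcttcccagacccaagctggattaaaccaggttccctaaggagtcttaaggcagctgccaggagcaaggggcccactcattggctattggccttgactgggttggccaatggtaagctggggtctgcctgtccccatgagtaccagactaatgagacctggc
Cxcl12, chr6:117168285-117168584, plus strand: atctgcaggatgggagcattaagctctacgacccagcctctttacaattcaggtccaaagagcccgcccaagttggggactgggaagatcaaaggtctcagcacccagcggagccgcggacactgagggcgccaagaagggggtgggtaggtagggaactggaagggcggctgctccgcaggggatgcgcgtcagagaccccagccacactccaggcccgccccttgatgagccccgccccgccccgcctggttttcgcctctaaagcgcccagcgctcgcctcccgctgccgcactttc
Kng2, chr16:23029052-23029351, minus strand: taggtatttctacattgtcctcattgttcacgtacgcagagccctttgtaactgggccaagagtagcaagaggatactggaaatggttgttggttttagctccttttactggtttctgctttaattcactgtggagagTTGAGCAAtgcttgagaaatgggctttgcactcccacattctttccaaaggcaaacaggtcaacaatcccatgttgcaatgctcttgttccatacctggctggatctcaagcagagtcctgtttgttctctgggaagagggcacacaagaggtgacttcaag
Serpina3f, chr12:104214294-104214593, plus strand: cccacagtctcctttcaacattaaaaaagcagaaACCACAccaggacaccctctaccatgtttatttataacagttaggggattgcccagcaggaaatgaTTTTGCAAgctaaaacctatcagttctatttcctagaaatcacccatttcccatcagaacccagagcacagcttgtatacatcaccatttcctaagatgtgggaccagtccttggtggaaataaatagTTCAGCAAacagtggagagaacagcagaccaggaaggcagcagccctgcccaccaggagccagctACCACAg

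None of the 3 motifs was in the Adipoq or Cxcl12 window, 1 C/EBP match was in that of Kng2, and 2 C/EBP and 2 RUNX matches were in that of Serpina3f. A further, overlapping Serpina3f window, not shown, also held 2 and 2. The window of Serpina3g, which had higher levels than Serpina3f, held 0 C/EBP matches and 1 RUNX match. Among the 299 promoters found for the genes at least 4-fold higher in Adipoq-Cxcl12 cells (233 genes), 14.0% held the C/EBP letters, 11.0% the RUNX letters and 1.00% the EBF letters. The shares were 8.43%, 11.8% and 0.952% over the 6830 promoters of all genes compared, and 10.8%, 16.8% and 0.904% over all 32851 promoters in the table. Promoters of 1 gene can overlap, and a match of letters is not a binding site.

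Factors that hold and feed blood-forming cells were among the genes that were higher. Of 12 niche factors compared, 9, Cxcl12 itself among them, were at least 4-fold higher in both libraries and 0 lower, with a list median of 4.05 and 4.08 on the log2 scale. Over all genes compared the shares were 4.68% and 2.32%. This list and those below were drawn up with earlier results of these data known, so their counts are a description and not a check. Vcam1, the adhesion molecule, had 974 CPM (920 to 1031) at 1 month and 1694 CPM (1664 to 1725) at 1.5 months, against 49.3 and 73.5 CPM in the other cells. Il7, the cytokine that B cell precursors need, had 146 CPM (126 to 169) and 108 CPM (101 to 116), against 2.80 and 5.06 CPM. Csf1 and Il34, the ligands of the macrophage receptor Csf1r, were both in this group. Csf1 had 216 and 349 CPM, and Il34 84.9 and 311 CPM. Angpt1, a ligand of the endothelial and stem cell receptor Tie2, had 111 and 90.2 CPM against 4.76 and 4.95 CPM. The exceptions were Igf1, at 733 and 405 CPM and a log2 ratio of 1.87 and 1.43, the Notch ligand Jag1, at 24.3 and 24.7 CPM and a log2 ratio of 1.70 and 0.79, and pleiotrophin (Ptn). Ptn had 277 and 44.1 CPM and a negative log2 ratio in both libraries, -0.59 and -2.96. Thpo, the gene of thrombopoietin, had 0 UMIs in chosen cells, which allows up to 3 UMIs in each library.

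Chemokines and cytokines followed. Of 10 compared, 7 were at least 4-fold higher in both libraries and 0 lower, against 4.68% and 2.32% of all genes compared. Cxcl14 reached 1917 and 2503 CPM against 138 and 325 CPM. Il1rn, the natural antagonist of interleukin 1, had 605 and 568 CPM against 13.2 and 23.2 CPM. The B and T cell attractant Ccl19 had 32.3 and 91.1 CPM against 2.87 and 5.88 CPM. Cxcl9, induced by interferon gamma, had 111 and 138 CPM against 2.66 and 10.2 CPM.

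Signals to bone and vessels formed the next group. Of 17 compared, 13 were at least 4-fold higher in both libraries and 0 lower, against 4.68% and 2.32% of all genes compared. Tnfsf11, the osteoclast factor RANKL, had 530 CPM (490 to 572) at 1 month and 432 CPM (417 to 448) at 1.5 months, against 16.6 and 38.9 CPM. Its decoy receptor Tnfrsf11b (osteoprotegerin) had 5.66 and 5.83 CPM, below the 12.1 and 36.1 CPM of the other cells, though too low to be compared in the count. A Tnfsf11 UMI was found in 73.2% and 66.8% of thinned chosen cells, and in 2.79% and 11.1% of Ptprc-positive cells. Antagonists of bone morphogenetic proteins were high as well. Grem1 had 387 CPM (353 to 423) and 386 CPM (372 to 401) against 7.87 and 16.2 CPM, Fst, the activin antagonist, 335 and 359 CPM against 9.88 and 18.5 CPM, and Chrdl1 209 and 443 CPM against 6.13 and 43.7 CPM. The Wnt antagonist Sfrp1 had 408 and 297 CPM against 12.1 and 23.0 CPM. Vegfc, a lymphatic and sinusoidal growth factor, had 140 and 217 CPM against 7.36 and 12.1 CPM. The insulin-like growth factor binding proteins Igfbp4 and Igfbp5 had 7055 and 5965 CPM and 3150 and 3866 CPM, with log2 ratios from 3.84 to 4.33.

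Liver-type plasma protein genes were mostly higher. Of 16 compared, 14 were at least 4-fold higher in both libraries and 0 lower, with a median of 4.16 and 3.97. Over all genes compared the shares were 4.68% and 2.32%. As the list was drawn up with earlier results of these data known, its count is not a check. Angiotensinogen (Agt), the precursor of angiotensin, had 1001 CPM (946 to 1058) and 1042 CPM (1019 to 1067), against 26.9 and 57.5 CPM, and a UMI in 96.8% and 98.2% of thinned chosen cells. Haptoglobin (Hp), which binds free hemoglobin, had 4455 and 7052 CPM against 379 and 247 CPM. Transferrin (Trf), the iron carrier, had 863 CPM (812 to 917) and 2186 CPM (2152 to 2221) against 45.3 and 73.4 CPM. Of the complement genes, C4b at 195 and 272 CPM, C1ra at 129 and 364 CPM and C1s1 at 75.2 and 175 CPM were high in both libraries. C3 was at 25.1 and 63.6 CPM, with a log2 ratio of -0.62 at 1 month and 2.68 at 1.5 months. Hemopexin (Hpx), a liver product like haptoglobin, had 0 UMIs at 1 month and 0.43 CPM at 1.5 months.

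**Figure D3:**
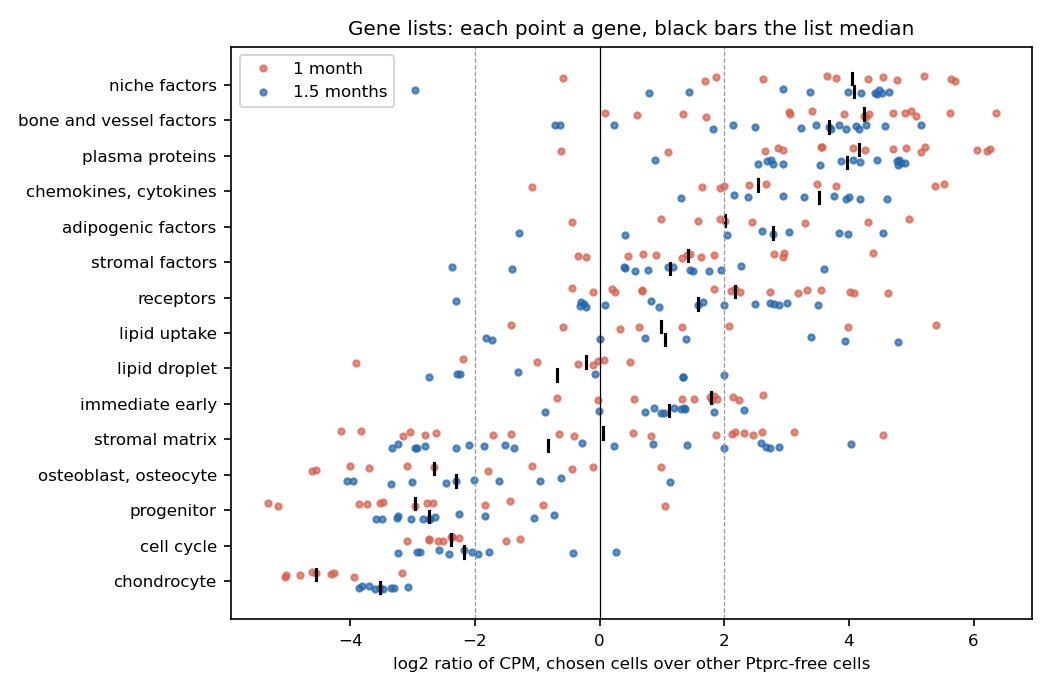
Log2 ratio of CPM, Adipoq-Cxcl12 cells over other Ptprc-free cells, for every gene compared in 15 lists (rows). Red points are 1 month, blue points 1.5 months, black bars list medians and dashed lines the 4-fold limits. Niche factors, bone and vessel factors and plasma proteins lie at the right with medians from 3.69 to 4.25, and the chondrocyte list at the left with -4.55 and -3.52.

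Regulators of adipocyte fate were high, and genes of stored fat were not. Of 9 adipogenic transcription factors compared, 5 were at least 4-fold higher in both libraries and 0 lower. Over all genes compared the shares were 4.68% and 2.32%. Pparg, the master regulator of adipocytes, had 73.6 CPM (59.2 to 90.3) and 77.8 CPM (71.4 to 84.6) against 3.72 and 3.34 CPM. Cebpa had 207 and 331 CPM against 21.2 and 23.1 CPM, Cebpb 1456 and 3374 CPM, and Ebf3, which keeps the marrow niche open, 198 and 256 CPM against 6.35 and 16.1 CPM. Ebf1, active in stroma and B cells alike, had 760 and 809 CPM and a log2 ratio of 1.93 and 3.04. Of 8 lipid droplet and triglyceride genes compared, 0 were at least 4-fold higher and 2 lower, Mgll and Scd1, with list medians of -0.22 and -0.69. Perilipin 1 (Plin1), which coats the droplets of fat cells, had 0.81 and 0.28 CPM, and Plin4 and Cidec had 0 UMIs in both libraries. The general droplet coat Plin2 had 125 and 90.9 CPM against 89.2 and 22.9 CPM. Leptin (Lep) had 0 UMIs, and adipsin (Cfd) and resistin (Retn) at most 0.28 CPM. Genes of lipid uptake were uneven. Of 8 compared, 3 were at least 4-fold higher, namely Lpl, which the rule used, Angptl4, an inhibitor of Lpl, at 483 and 591 CPM against 30.6 and 56.6 CPM, and apolipoprotein E (Apoe) at 4133 and 7289 CPM against 985 and 476 CPM. Fabp4, the fatty acid carrier of adipocytes and endothelium, had 65.5 and 65.3 CPM against 98.6 and 25.1 CPM. Of 4 adipokines compared, 2 were at least 4-fold higher, Adipoq, which the rule used, and chemerin (Rarres2), the latter at 461 and 639 CPM against 42.2 and 55.4 CPM.

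Receptors of growth factors and cytokines, and regulators of stromal fate, were the next lists. Of 17 receptors compared, 6 were at least 4-fold higher in both libraries and 0 lower. Over all genes compared the shares at 4-fold were 4.68% and 2.32%. Pdgfrb had 223 and 246 CPM against 24.6 and 35.3 CPM, and Pdgfra, just short of the limit at 1.5 months, 71.1 and 106 CPM with log2 ratios of 2.26 and 1.99. Notch3 had 77.6 and 73.7 CPM against 6.62 and 11.1 CPM, the growth hormone receptor Ghr 172 and 266 CPM against 17.2 and 33.1 CPM, and the interleukin 1 receptor Il1r1 92.2 and 111 CPM against 5.67 and 19.7 CPM. Of 14 stromal and osteogenic transcription factors compared, only Id4 was at least 4-fold higher in both libraries, at 241 and 284 CPM against 11.5 and 23.5 CPM, and 0 were lower. At 2-fold in both libraries 8 of the 14 were higher and 0 lower, against 14% and 4.4% of all genes compared. Foxc1, a regulator of Cxcl12-abundant cells, had 147 and 195 CPM and log2 ratios of 2.95 and 1.45.

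Osteoblast genes were in part lower. Of 11 compared, 0 were at least 4-fold higher and 5 lower, and 6 were at least 2-fold lower, with list medians of -2.66 and -2.31. Over all genes compared, 4.68% were at least 4-fold higher, 2.32% at least 4-fold lower and 4.4% at least 2-fold lower. Collagen I (Col1a1) had 632 and 1534 CPM against 10118 and 15599 CPM, and osteocalcin (Bglap) 334 and 1052 CPM against 7819 and 16352 CPM. Bone sialoprotein (Ibsp), a mineral-binding matrix protein of osteoblasts, had 2092 CPM (2012 to 2174) and 3939 CPM (3893 to 3985), above the 1055 and 1792 CPM of the other cells, with log2 ratios of 0.99 and 1.14. Single chosen cells ran from 0 to 120 Ibsp UMIs per 10000 with a median of 14.5 at 1 month, and from 0 to 324 with a median of 35.8 at 1.5 months. After thinning 86.6% and 97.0% of chosen cells had an Ibsp UMI, against 36.8% and 69.4% of the other Ptprc-free cells and 23.7% and 73.3% of Ptprc-positive cells, the last from 45 cells. The osteoblast regulators Runx2 and Sp7 had 122 and 113 CPM and 25.9 and 29.4 CPM, with log2 ratios of 1.62 and 0.57 and of -0.21 and -1.41. Of 13 progenitor genes compared, 9 were at least 4-fold lower and 0 higher, Ly6a (Sca1) among them at 8.89 and 14.4 CPM against 99.0 and 94.7 CPM. Of 11 cell cycle genes, 7 were at least 4-fold lower and 0 higher, with Top2a, a DNA topoisomerase of dividing cells, at 36.4 and 4.98 CPM against 191 and 38.0 CPM.

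Matrix genes lay on both sides. Of 20 compared, 4 were at least 4-fold higher, Fbln5, Lamb1, Nid1 and Col4a1, and 5 lower, Fn1, Col3a1, Lum, Fmod and Mgp. Over all genes compared the shares at 4-fold were 4.68% and 2.32%. Fbln5, an elastic fibre protein, had 1045 and 1411 CPM against 44.5 and 86.1 CPM. Col4a1, a basement membrane collagen, had 233 and 239 CPM against 53.7 and 36.1 CPM, while Col3a1, a fibrillar collagen, had 175 and 362 CPM against 1229 and 2520 CPM. All 9 chondrocyte genes compared were at least 4-fold lower, and cartilage genes made up most of the 10 smallest ratios. Without cartilage cells in the comparison Matn3, Mia, Col2a1, Ucma and Col9a3 were slightly higher in chosen cells at 1.5 months, and Col9a3 at 1 month, while Hapln1 and Col11a1 were still lower in both libraries. Neutrophil genes were at least 4-fold lower for 2 of 9, Elane and Mpo, and erythroid genes for 0 of 4. Of 6 endothelial genes only Pecam1 could be compared, at 21.8 and 18.5 CPM against 24.1 and 6.68 CPM. No B lineage gene and 1 macrophage gene, Lyz2, passed the filter on low values. Of 4 mural genes, Rgs4 was at least 4-fold higher and Cspg4 lower. Of 12 immediate early genes, which respond to cell handling, 0 were at least 4-fold higher and 7 at least 2-fold higher, with Fos at 4449 and 5366 CPM against 1207 and 2341 CPM. At 2-fold in both libraries 14% of all genes compared were higher.

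The nearest cells by the rule were those with Cxcl12 over its limit and Adipoq under it, whatever their Lpl, 80 at 1 month and 176 at 1.5 months. They were much like the chosen cells. Of 7122 genes compared, 37 (0.52%) were at least 2-fold higher in Adipoq-Cxcl12 cells in both libraries and 41 (0.576%) at least 2-fold lower, and the medians of all genes were -0.05 and -0.06. The 37 include Adipoq and Lpl, which the rule used. In the single libraries 2.91% and 1.39% were higher and 2.85% and 2.06% lower. Kitl differed by 0.60 (0.38 to 0.82) and 0.68 (0.56 to 0.81) on the log2 scale, Lepr by 0.40 (0.01 to 0.81) and 0.84 (0.64 to 1.04), and Pparg by 0.65 (0.03 to 1.32) and 0.89 (0.48 to 1.32). Esm1 differed more, by 1.79 (1.51 to 2.08) and 1.81 (1.67 to 1.95), with 195 and 326 CPM in the nearest cells. Of the genes with at least 100 CPM in chosen cells of both libraries, Chrdl1 had 2.11 and 1.64, Trf 1.25 and 1.28 and the taurine carrier Slc6a6 1.24 and 1.10. Il34, below that limit at 1 month, had 2.08 (1.22 to 3.08) and 1.53 (1.28 to 1.79). Hba-a1, Hba-a2, Hbb-bs and Hbb-bt, the hemoglobin genes, were also at least 2-fold higher, and without the few chosen cells rich in blood RNA (156 and 1116 cells left) none of the 4 was at least 2-fold higher in either library. Hbb-bt at 1 month and Hbb-bs and Hba-a2 at 1.5 months were then lower in chosen cells.

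In the other direction, of 10 osteoblast and osteocyte genes compared only Alpl was at least 2-fold lower in both libraries. The share over all genes compared was 0.576%. Wif1, a secreted Wnt inhibitor, had 384 CPM (350 to 420) and 297 CPM (285 to 310) in chosen cells against 1501 and 1467 CPM in the nearest cells, a log2 ratio of -1.97 (-2.13 to -1.81) and -2.30 (-2.39 to -2.21). Alpl, the alkaline phosphatase of mineralizing cells, had 276 and 130 CPM against 713 and 484 CPM, a ratio of -1.37 (-1.58 to -1.16) and -1.90 (-2.05 to -1.75). The potassium channel Kcnk2 was at -1.55 and -2.08, the phosphate carrier Slc20a2 at -1.55 and -2.57, the proteoglycan lumican (Lum) at -1.26 and -1.40, and the calcification inhibitor Mgp at -1.29 and -1.22. Cxcl12-high cells with less Adipoq thus carried more of these genes in both libraries. The Adipoq limit set which cells were compared, so the ratio of Adipoq itself, 3.13 and 3.21, is not a result. The Lpl limit held for the chosen cells only, so the ratio of Lpl, 1.21 and 1.43, is not a result either.

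Between the 2 libraries, 278 of 7675 genes (3.62%) were at least 2-fold higher in Adipoq-Cxcl12 cells at 1.5 months and 318 (4.14%) at 1 month. The 10 leading genes each way were mostly genes of other cell types. At 1.5 months they were mainly cartilage genes such as Col10a1, at 6.47 and then 214 CPM, and at 1 month mainly myeloid genes such as Retnlg, at 1069 and then 6.26 CPM. Cartilage and neutrophil RNA differed likewise in the other cells of the same libraries, as the summed values above show, and in Ptprc-positive cells the chondrocyte genes summed to 1525 and 17422 CPM.

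**Figure D4:**
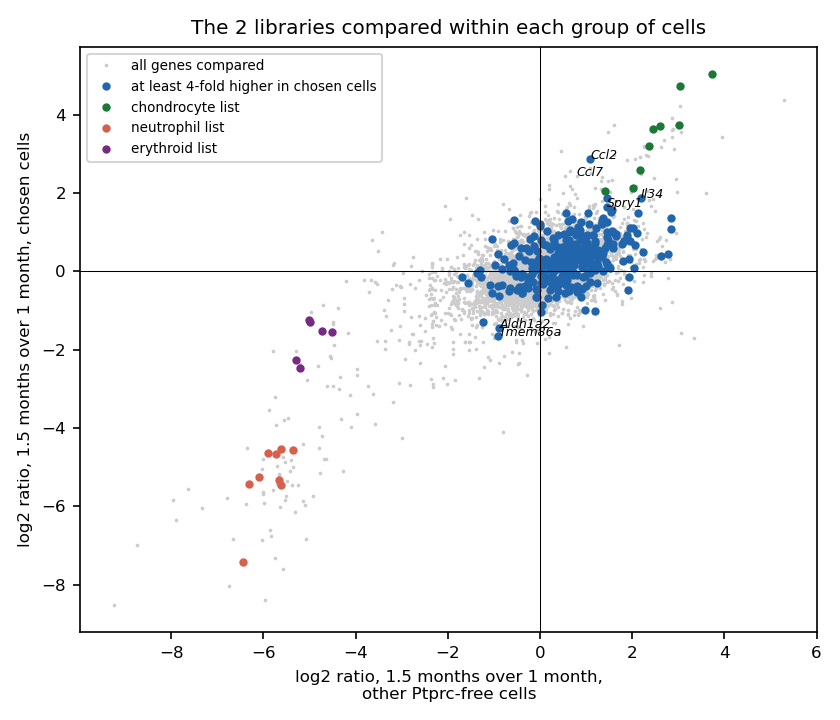
Log2 ratio of CPM at 1.5 months over 1 month in Adipoq-Cxcl12 cells (vertical) against the ratio in the other Ptprc-free cells (horizontal), 1 point a gene. Chondrocyte genes (green) lie at the upper right, neutrophil (red) and erythroid (purple) genes at the lower left, and genes at least 4-fold higher in chosen cells (blue) near the middle, with Ccl2 highest among them at 2.88.

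Among the 323 genes at least 4-fold higher in Adipoq-Cxcl12 cells, a set taken after seeing the data, 35 were at least 2-fold higher at 1.5 months (10.8%) and 6 at 1 month (1.86%). The set was chosen partly on these same levels. Ccl2, the monocyte attractant, had 194 CPM (170 to 220) at 1 month and 1426 CPM (1398 to 1454) at 1.5 months, a log2 ratio of 2.88 (2.69 to 3.07), against 1.09 in the other cells. Its neighbour Ccl7, on chromosome 11 like Ccl2, had 81.6 and 440 CPM, whereas Ccl11, Ccl12 and Ccl8 in the same 81.2 kb stood at 4.85 CPM or less in chosen cells of both libraries. Il34 differed by 1.87 (1.59 to 2.17), though by 2.19 in the other cells. Spry1, an inhibitor of growth factor signalling, was at 103 and 318 CPM, a difference of 1.63 against 1.45 in the other cells, Trf differed by 1.34 (1.25 to 1.43) against 0.69 in the other cells, and the selenium carrier Sepp1 by 1.27 against -0.11. Lepr differed by 0.97 (0.76 to 1.19) and Kitl by 0.27 (0.15 to 0.38), against 2.11 and 0.98 in the other cells. Those other cells include 80 and 176 Cxcl12-high Adipoq-low cells, so their ratios are not a background free of similar cells. Kitl was at 8.45 and 16.3 CPM in Ptprc-positive cells, the last from 55 cells. The part of free RNA in these ratios was not tested. Higher at 1 month were Tmem86a at -1.66, the retinoic acid enzyme Aldh1a2 at -1.45 with 152 and 55.6 CPM, Limch1 at -1.05 and the Wnt agonist Rspo3 at -1.01 with 396 and 196 CPM. In the other cells these differed by -0.90, -0.88, 0.02 and 1.20. Agt, Kng2 and Pparg differed by 0.06, 0.08 and 0.08, each with an interval that includes 0.

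Variation among the chosen cells themselves was described by the Fano factor, variance over mean. It is 1 for Poisson counts, and its median over 1351 genes with at least 0.5 UMI per cell thinned to 5000 UMIs was 1.12 at 1 month and 1.11 at 1.5 months. In both libraries 149 genes (11.0%) had 2 or more. Hemoglobin and S100a8 and S100a9 genes were the most uneven, and a few cells held much of their RNA, with neutrophil genes up to 2275 and 2136 UMIs per 10000 against medians of 120 and 2.09. Next came Fos at 24.0 in both libraries, the nuclear RNA Malat1 at 23.3 and 24.5, osteopontin (Spp1) at 20.6 and 48.5 and Cxcl9 at 26.0 and 15.5. Ccl2 had 8.59 and 30.9, Ibsp 13.4 and 11.6, the metallothionein Mt1 12.5 and 19.3, and Cxcl12 itself 7.88 and 7.69. The Fano factor also depends on the mean, so it does not rank genes of unlike level by relative spread. Malat1 had a mean of 168 and 162 UMIs per thinned cell and Cxcl12 91.3 and 138, but Cxcl9 only 0.55 and 0.74.

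**Figure D5:**
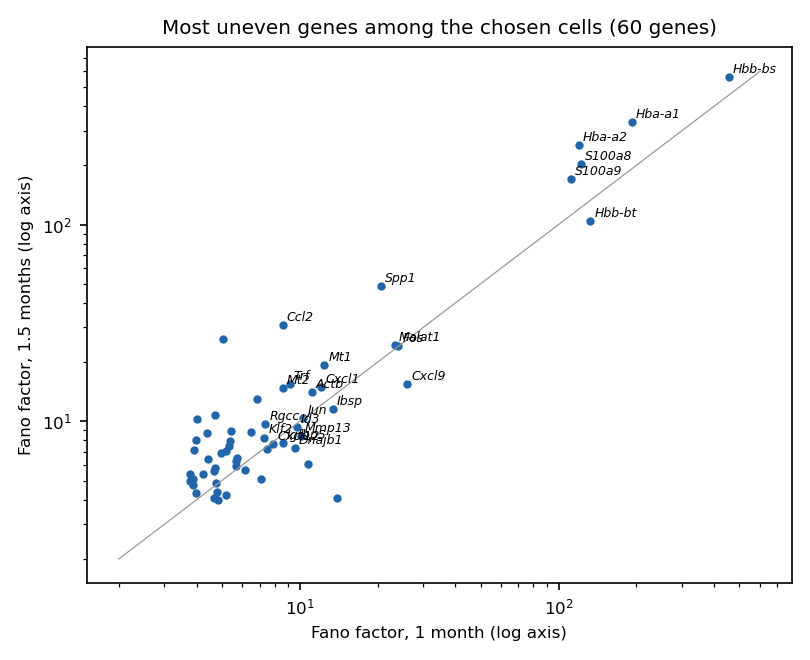
Fano factor of UMI counts in chosen cells thinned to 5000 UMIs, at 1 month (horizontal) and 1.5 months (vertical), both on log axes, for the 60 genes with the largest values in both libraries. The line marks equal values. Hemoglobin and S100a8 and S100a9 genes lie over 100 in both libraries, and Ccl2 lies above the line.

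Some uneven genes were found more often in the same cells, and others were not. A Cxcl9 UMI was found in 15 of 157 thinned chosen cells at 1 month and 152 of 794 at 1.5 months. At 1.5 months 68.4% of those with a Cxcl9 UMI had one of Iigp1, an interferon-induced GTPase, against 37.7% of the rest, and 24.3% against 10.4% had one of Cxcl10. At 1 month the shares were 53.3% against 21.1% and 20% against 8.45%, from 15 cells. A Ccl2 UMI was found in 42 and 466 cells. With it 54.7% had a Ccl7 UMI at 1.5 months, against 21.3% without, and 16.7% against 18.3% at 1 month. For Cxcl1 the shares were 68.2% against 45.7% at 1.5 months and 54.8% against 38.3% at 1 month. The metallothionein Mt2 was found in 85.6% with a Ccl2 UMI against 82.0% without, and 42.9% against 42.6% at 1 month. With and without a Cxcl9 UMI at 1.5 months, 57.9% against 59.2% had a Cxcl1 UMI and 83.6% against 84.3% one of Mt2. At 1 month these were 53.3% against 41.5% and 73.3% against 39.4%, from 15 cells with Cxcl9. An Ibsp UMI was found in 136 of 157 cells at 1 month and 770 of 794 at 1.5 months. So few cells were without one that pairing with Alpl could not be judged. An Alpl UMI was found in 35.5% with an Ibsp UMI against 33.3% without (8 cells) at 1.5 months. At 1 month it was found in 52.9% against 61.9% (13 cells).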

How the data were processed

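Td+ endosteal marrow cells were sequenced on a 10x Genomics platform as 1 library per age. The authors deposited raw UMI counts per gene and cell barcode, before filtering. The submitters' processing notes name Cell Ranger 3.0.2, Seurat 2 and build mm10. The 2 tables used list the same 27999 genes, with 108227184 UMIs over 8417 barcodes and 63258961 UMIs over 5745 barcodes. UMIs were summed over the cells of a group in each library and given as CPM with exact Poisson intervals. A log2 ratio has an exact conditional binomial interval, and a count of 0 was set to a floor of 3 UMIs per group. Genes were compared when the mean of both groups' CPM was at least 10 in each library. Shares and Fano factors used cells thinned at random to 5000 UMIs, which left out 5 and 327 chosen cells.

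The genes named are those of 24 lists, the 25 highest and 10 lowest against the other cells, the 10 leading genes each way in the further comparisons (ranked, except between ages, by the library with the smaller ratio, with at least 100 CPM in the higher group) and the 10 most uneven. Genes of the neighbouring stretches, of paired detection and of the age comparison within genes high in chosen cells were taken after seeing values. Members and lists were chosen with earlier results of these data known. The calculation was tested on simulated Poisson counts without spread between cells. That test therefore does not show how the intervals hold for genes that are uneven among cells. Python 3.11.15, numpy 2.4.6, scipy 1.17.1, pandas 2.3.3 and matplotlib 3.10.9 were used, with gene positions from GENCODE M21. Cebpd was not analysed here, and 1 further gene is not reported here.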

Additional observations from a re-analysis of the deposited data

Results flagged for a closer look

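Against the other Ptprc-free cells, 2 genes of the comparison were at least 2-fold apart in opposite directions in the 2 libraries. Cxcl2, a neutrophil attractant, had a log2 ratio of -1.09 at 1 month (25.9 against 55.1 CPM) and 1.30 at 1.5 months (22.0 against 8.92 CPM). S100b, a calcium-binding protein, had 1.08 (115 against 54.1 CPM) and -1.19 (96.8 against 221 CPM). The difference between libraries was not tested.

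The same rule also found cells in the libraries that the comparisons above do not use, 298 of 4180 filtered cells at 3 months (7.13%, 6.37 to 7.95) and 2719 of 6143 at 16 months (44.3%, 43.0 to 45.5).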

How the results depend on the processing

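For 130 ratios of named genes, 1120 values under alternatives were computed, of which 644 kept their value within its counting interval, 461 moved beyond it and 15 changed sign. With no cartilage cells in the comparison, alone or together with no neutrophil-rich cells, Matn3 at 1.5 months came to 0.12 and 0.13, Mia to 0.18 and 0.18, Col2a1 to 0.0943 and 0.0939, Ucma to 0.12 and 0.12, Col9a3 to 0.14 and 0.14, and Col9a3 at 1 month to 0.0504 and 0.0192. Without chosen cells rich in blood RNA, Hbb-bt against Cxcl12-high Adipoq-low cells came to -0.0137 at 1 month, and Hbb-bs and Hba-a2 to -0.27 and -0.50 at 1.5 months. With no filter on low genes the counts of genes higher and lower than the other Ptprc-free cells became 2106 and 378, against the nearest cells 88 and 1091, and between libraries 968 (higher at 1.5 months) and 4109 (higher at 1 month), because genes near the floor enter. Leaving cartilage cells out of the comparison lowered the count of genes lower in chosen cells to 95. With halved limits 83 genes were higher and 90 lower than in the nearest cells, and with limits 1.5 times as high 8 and 25, since the limits also set those cells. Among the genes high in chosen cells 35 and 6 differed between libraries. The share of chosen cells was 2.38% and 22.9% with halved limits, 1.38% and 17.9% with limits 1.5 times as high, and 16.9% at 1.5 months after thinning to 5000 UMIs. At 3000 UMIs 92 genes had a Fano factor of 2 or more. Leaving out cells with 2 or more markers of another type could not be used, as it left 0 of 162 cells at 1 month. The comparison without neutrophil-rich cells, the removal of cells rich in blood RNA and the count within genes high in chosen cells were chosen after seeing the data.

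No paired analysis was possible because each age is 1 library of pooled mice. With 1 library per age nothing here measures the spread between mice.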
